A study of Mus musculus with 24 samples.

Results

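The receptor tyrosine kinase genes were followed across every library of a mouse small cell lung cancer (SCLC) series. They were taken as 47 listed gene symbols, all of which were present among the 25239 genes of the expression table. The series holds 24 libraries from 6 tumor-derived cell lines, each line giving 4 libraries. Lines 4711-1, 4711-18 and 4716-11 are labelled Type D and lines 4711-11, 4716-10 and 4716-14 are labelled Type V. These names stand for the fate of the cells after p53 was turned back on, with loss of viability in Type D and viable cells in Type V. All lines came from tumors of mice of mixed strain background carrying Rosa26 FlpO-ER, 2 Trp53 XTR alleles and both Rb1 flox/flox and Rbl2 flox/flox, in which Cre from an adenovirus with a CMV promoter was used to recombine Rb1 and Rbl2 and trap Trp53. Control cells received vehicle, Restored cells received 4-OHT, which activates FlpO-ER and removes the Trp53 gene trap, and both were also treated with CsA (cyclosporin A, a cyclophilin and calcineurin inhibitor) as Control + CsA and Restored + CsA. RNA was taken at 72 h, so each of the 8 groups holds 3 lines, and all groups, controls included, share the floxed Rb1 and Rbl2 alleles and the Cre treatment. RNA is listed for both genes, Rb1 at 7.36 to 68.8 TPM and Rbl2 at 4.49 to 20.6 TPM over the 24 libraries, and values per gene do not separate the floxed part from the rest. The labels do not say which lines share an animal, so no test measures the spread between animals. Tests without a block rest on the spread of lines within groups. With the cell line as a block they rest on the spread left once line levels are removed.

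Receptor tyrosine kinases are membrane proteins that bind a growth factor or a partner on a neighbouring cell, pair up, and phosphorylate tyrosines that recruit adaptors, Ras and phosphoinositide 3-kinase. Signaling is then restrained by ubiquitin ligases of the Cbl family, Sprouty and Spred proteins and dual specificity phosphatases. Several family members, among them Erbb3, Ptk7, Ryk and Ephb6, have little or no kinase activity of their own and act through partners. In SCLC, Kit, Met, Igf1r, Fgfr1, Axl and Eph receptors have been studied.

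Levels are given in TPM (a share of all transcripts in the library), which is corrected for transcript length and can be compared between genes. Differences are given on the log2(TPM + 1) scale, which understates the change of genes with low values. A gene was called when its Benjamini-Hochberg adjusted p from limma was under 0.05 and its difference was at least 1 on that scale. Of the 47 receptor genes, 34 reached a TPM of 1 in at least 3 libraries and were tested among 14104 genes.

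The p53 state in the labels was checked on Trp53 first. Trp53 was at 10.5 to 15.3 TPM in the 12 libraries without 4-OHT and at 181 to 253 TPM in the 12 restored libraries. Each library thus matched its label for p53 state, and Trp53 cannot check the line, type or CsA part of a label. Of the neuroendocrine markers that usually define SCLC, Chga, Chgb, Calca, Neurod1 and Grp were under 1 TPM in every library. Among that list's other genes, Ncam1 was at 4.46 to 27.3 TPM, and Insm1, Uchl1 and Syp reached 49.6, 40.9 and 1.41 TPM. The 10 neuroendocrine markers summed to 9.63 to 20.5 TPM in Type D Control and 33 to 79.3 TPM in Type V Control. Endothelial markers (Pecam1, Cdh5, Cldn5, Emcn, Vwf) and the macrophage markers Ptprc, Adgre1, C1qa and Itgam were also under 1 TPM in every library. The other macrophage markers of the list were higher, Cd68, a lysosomal protein, at 5.6 to 55.3 TPM and Lyz2 at up to 1.68 TPM. The types differed in the sum of 5 epithelial markers, at 9522 to 16618 TPM in Type D Control and 756 to 2325 TPM in Type V Control. Over the 24 libraries Krt8, Krt18 and Krt19 reached 5797, 5115 and 4802 TPM, Cdh1 1050 TPM and Epcam 4.57 TPM. Of the 5, only Krt19 was called between the types in Control. TPM carries no depth, so counting error is unknown, and Rpl26, a ribosomal gene used by every cell, is listed at 0 in all 24 libraries, so a 0 below means only that the gene is listed at 0.

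Axl and Epha2 were the most abundant receptor genes in all 24 libraries. Axl, which binds Gas6 and protein S, ranged from 179 to 710 TPM with a median of 433. Epha2, a receptor for ephrin-A ligands, ranged from 169 to 901 TPM with a median of 368. Together they made up 49.7 to 65.5% of the summed TPM of the 47 genes in Type D Control and 31.5 to 37.1% in Type V Control. Behind them by median came the collagen receptor Ddr1 (131 TPM), the ephrin-B receptor Ephb4 (91.6 TPM), the Wnt-binding receptors Ryk (83.6 TPM) and Ptk7 (80.8 TPM), the HGF receptor Met (68.4 TPM), Epha4 (47.3 TPM) and Erbb2 (46.2 TPM). Each of these genes overlapped in range with its neighbours in that order, while genes farther apart in it could separate, as Erbb2 (26.8 to 56 TPM) and Ddr1 (58.2 to 272 TPM) did. The 47 genes summed to 1249 to 1700 TPM in the 6 Control libraries and 1587 to 2132 TPM in the 6 Restored libraries.

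In all, 17 receptor genes stayed at or above 1 TPM in every library. Besides those above they were Egfr, Tyro3, Igf1r, Insr, Flt4, Epha7, Ephb3 and Ephb6. Another 13 never reached 1 TPM in 3 libraries and were not tested. Of these, Erbb4, Fgfr4, Kit, Kdr, Ntrk2, Ephb1, Tek, Tie1 and Ros1 stayed at or under 0.5 TPM throughout, Epha5 and Alk reached 0.581 and 0.654 TPM, and Epha3 reached 1.74 TPM. Pdgfra, the PDGF receptor of mesenchymal cells, was at 3.37 TPM in Control and 2.59 TPM in Control + CsA of line 4716-14 and under 1 TPM in every other library. Kit, the stem cell factor receptor, did not exceed 0.103 TPM.

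**Figure D1:**
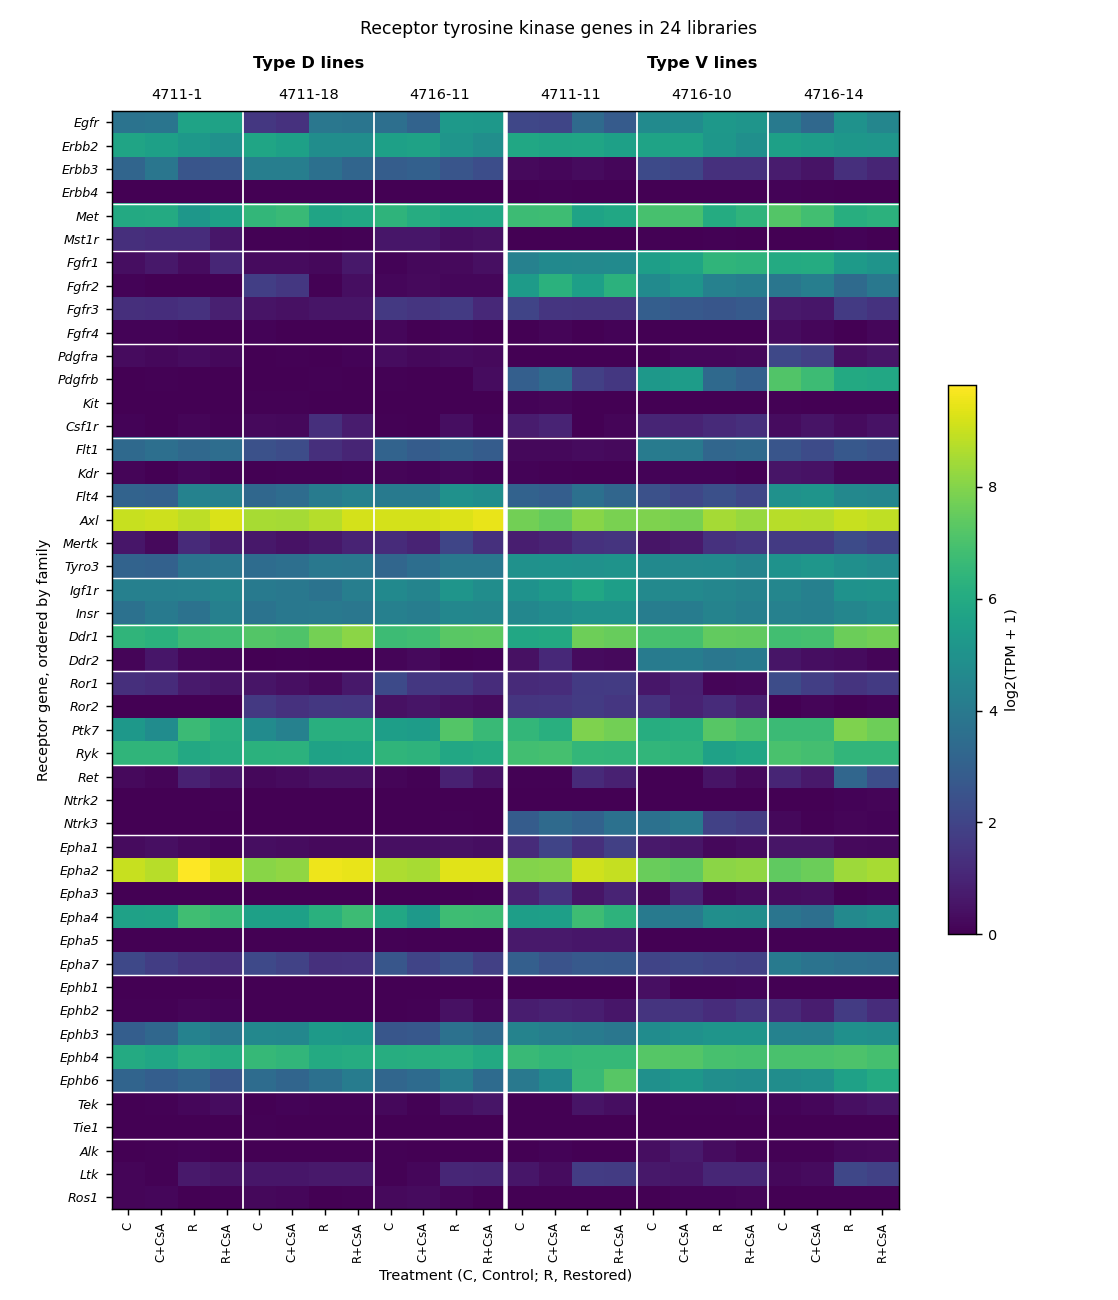
Level of each of the 47 receptor genes (rows, ordered by family, separated by white lines) in each of the 24 libraries (columns, grouped by line and then treatment), as log2(TPM + 1). Axl and Epha2 are the brightest rows in every column, Fgfr1, Fgfr2 and Pdgfrb are bright in the Type V lines alone, and 13 genes are dark nearly throughout.

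Lines differed more than treatments for most receptors. For 23 of the 34 tested receptors, the range over the 6 line means exceeded the largest range over the 4 treatments within any line. This was not counted over all genes, so it is not a trait of receptors. The line means also hold the difference between the types, and 10 of the 34 passed the filter through Type V libraries alone. Several receptors were high in 1 or 2 lines, or low in 1. Ddr2, a receptor for fibrillar collagen, was at 13.7 to 16.7 TPM in line 4716-10 and at most 1.17 TPM elsewhere. Ntrk3, the receptor for neurotrophin-3, was at 6.2 TPM in line 4711-11 and 11.6 TPM in line 4716-10 in Control, and it was at 0.16 TPM in line 4716-14 and listed at 0 in all 3 Type D lines. Flt1, a VEGF receptor, was at 0.17 TPM in 4711-11 against 4.48 to 16.1 TPM in the other 5 lines in Control. Mst1r, the receptor for MSP, reached 1 TPM in line 4711-1 alone. Within Type V, line 4711-11 also stood apart for Egfr, at 3.3 TPM in Control against 25.1 TPM in 4716-10 and 15.3 TPM in 4716-14.

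The first comparison asked how the receptors differed between untreated Type D and Type V lines. Type D lines had less of the FGF receptors Fgfr1 and Fgfr2, the PDGF receptor Pdgfrb, the Gas6 and protein S receptor Tyro3, the Wnt coreceptor Ptk7 and the ephrin-B receptor Ephb2. No receptor was called higher in Type D, and 6 of 34 were called lower. Over all 14104 genes, 2.18% were called higher and 2.3% lower in this comparison. Of the 6 receptors, Fgfr1, Fgfr2, Pdgfrb and Ephb2 entered the test through Type V libraries alone, so that part of the count follows from the filter, as it does for 10 of the 34 tested receptors. Tyro3 and Ptk7 passed the filter in both types.

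Fgfr1 (GRCm38 chromosome 8, positions 25513654 to 25575718) was at 0.3, 0.226 and 0.0701 TPM in the Type D Control lines and at 19, 44.1 and 63.1 TPM in the Type V Control lines. Fgfr2 (chromosome 7, positions 130162451 to 133123350) was at 0.0592, 2.53 and 0.129 TPM in Type D and at 41.2, 24.8 and 13.5 TPM in Type V. Pdgfrb was at 0.0195, 0 and 0.0318 TPM in Type D and at 6.87, 36.7 and 143 TPM in Type V. All 3 receptors were near 0 in Type D, apart from Fgfr2 in line 4711-18, and the types did not overlap. The differences (Type D minus Type V) were -5.02 ± 0.46 (SE) for Fgfr1, -3.96 ± 0.62 for Fgfr2 and -5.10 ± 1.01 for Pdgfrb, with limma adjusted p of 0.00937, 0.0281 and 0.0479. The order of the Type V lines was opposite for these receptors, with Fgfr2 highest and Fgfr1 and Pdgfrb lowest in 4711-11. In bulk libraries, fewer cells with a receptor and less receptor RNA per cell cannot be told apart.

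Tyro3 was at 7.81, 10.2 and 8.39 TPM in Type D and at 30.1, 24.1 and 30.9 TPM in Type V Control lines. Its difference was -1.58 ± 0.20 with a limma adjusted p of 0.0183. Ptk7, which acts in planar cell polarity, was at 36.4, 25.7 and 44.1 TPM in Type D and at 88.8, 68 and 102 TPM in Type V, a difference of -1.28 ± 0.25 with a limma adjusted p of 0.0478. Neither gene overlapped between the types, and neither was near 0 in either. Ephb2 was low in both, at 0.0295, 0 and 0 TPM in Type D and 0.746, 1.79 and 1.25 TPM in Type V, and differed by -1.14 ± 0.22 with a limma adjusted p of 0.0447. Tyro3 belongs to a Type V gene list and Ptk7 to a gene module that the study built from these libraries, so those lists are not independent evidence of either direction.

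Among the 23 receptors that passed the filter in both types, 16 were lower and 7 higher in Type D, with a median difference of -0.38, beside -0.12 over all tested genes. Median-ratio scaling brought the median of all tested genes to -0.02. It moved that of all 34 tested receptors, those passing through Type V alone included, from -0.45 to -0.37, with 24 lower and 10 higher. Some receptors ran the other way without being called. The ErbB receptor Erbb3, which lacks strong kinase activity and pairs with Erbb2, was at 8.16, 17.6 and 6.39 TPM in Type D and 0.186, 3.57 and 0.664 TPM in Type V, a difference of 2.37 ± 0.61 with a limma adjusted p of 0.0865. Epha2 was at 502, 266 and 393 TPM against 254, 189 and 169 TPM, a difference of 0.90 ± 0.28 with a limma adjusted p of 0.126. Neither of these overlapped between the types.

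Some mesenchymal markers were lower in Type D, as Fgfr1, Fgfr2 and Pdgfrb were, and the summed epithelial markers were higher there. The collagen genes Col1a2 and Col3a1 and the proteoglycan gene Dcn were under 1 TPM in every Type D library, and in Type V Control Col1a2 was at 19, 80.7 and 170 TPM. Lum was under 1 TPM in every library of both types. Col1a1 ranged from 0.0592 to 401 TPM over the 24 libraries and was not under 1 TPM throughout Type D. With Vim, which was at 2365 TPM or more in all 24 libraries, the 6 mesenchymal markers summed to 3032 to 5361 TPM in Type D Control and 3723 to 5253 TPM in Type V Control. Their part in the receptor differences was not tested. The count of 6 receptors also rested on single lines: without line 4711-1 it was 0, without 4711-18 4, without 4716-11 1, without 4711-11 6, without 4716-10 3 and without 4716-14 2. Without 4711-1 Fgfr1 still differed by -5.08, with a limma adjusted p of 0.0543. After median-ratio scaling Pdgfrb (adjusted p 0.0543), Ptk7 (0.0653) and Ephb2 (0.0529) were no longer called.

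The other treatments gave the same comparison again in the same lines, so their calls are not independent of those in Control. In Control + CsA no receptor was called higher and 5 were called lower, beside 2.13% and 2.47% of all genes. They were Fgfr1, Fgfr2, Pdgfrb, Tyro3 and Ephb6, the last an ephrin-B receptor without kinase activity that was at 6.62, 8.18 and 9.93 TPM in Type D and 24.4, 36.1 and 29.8 TPM in Type V (-1.75 ± 0.25, limma adjusted p 0.0232). In Restored no receptor was called higher and 2 were called lower, Fgfr1 (-5.20 ± 0.48) and Fgfr2 (-4.35 ± 0.55), beside 1.76% and 1.72% of all genes, with limma adjusted p of 0.00796 and 0.0164. In Restored + CsA it was again 0 higher and 2 lower, Fgfr1 (-4.69 ± 0.47) and Fgfr2 (-4.61 ± 0.64), beside 2.13% and 2.11%, with limma adjusted p of 0.00719 and 0.0171. Pdgfrb and Tyro3 did not overlap between the types in these restored groups either, but were not called. Leaving out 1 line moved these counts between 1 and 5 in Control + CsA (1 without 4711-1 or 4716-11, 2 without 4711-18, 3 without 4716-14), between 0 and 4 in Restored (0 without 4711-1, 1 without 4711-18 or 4716-11, 4 without 4711-11, 3 without 4716-10), and between 1 and 6 in Restored + CsA (1 without any Type D line, 6 without 4716-10).

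**Figure D2:**
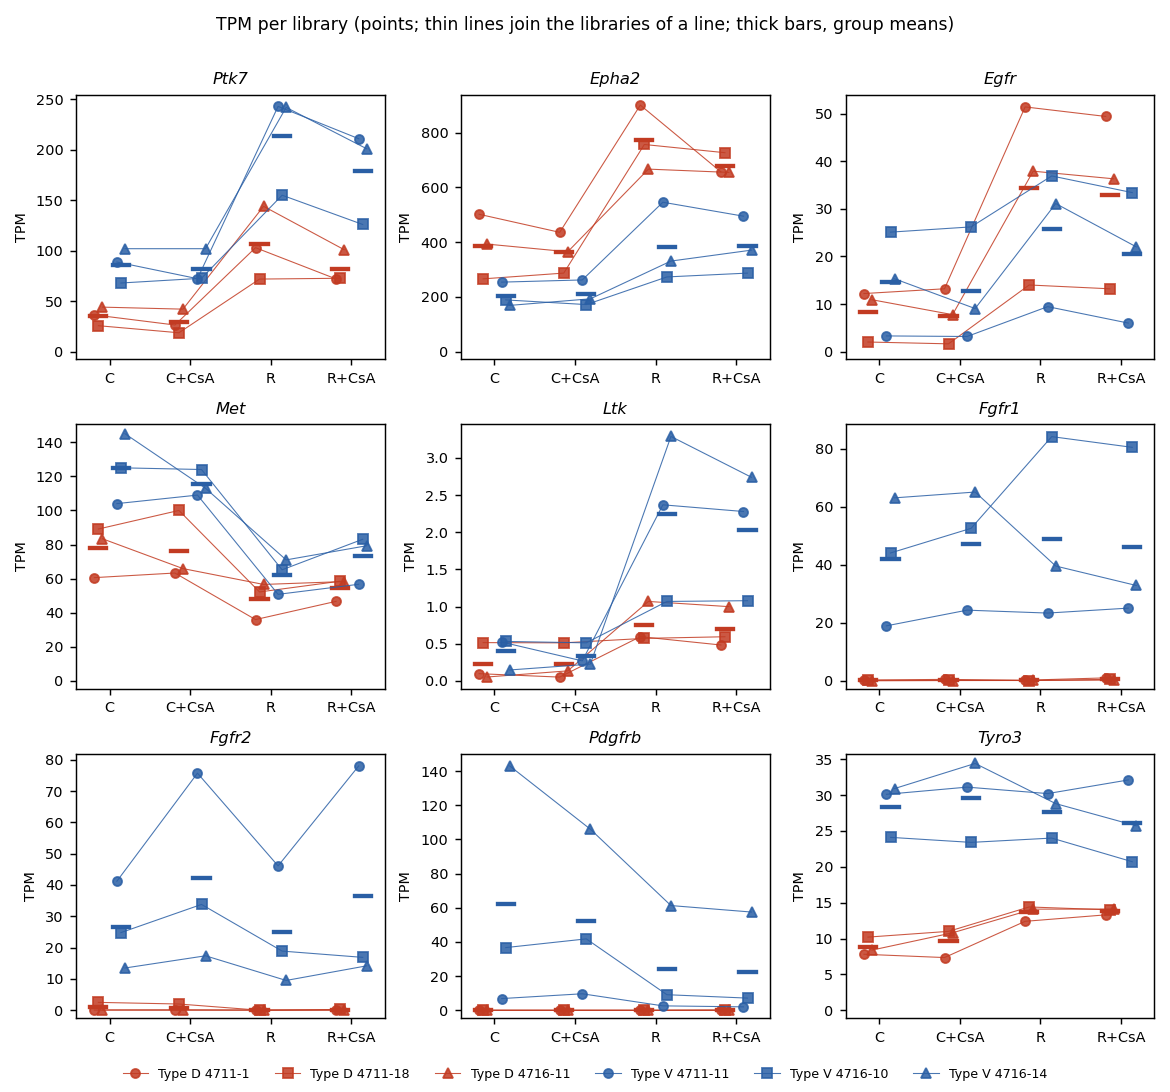
TPM of 9 receptor genes in each library, by treatment (C, Control; R, Restored; with or without CsA). Points are libraries, thin lines join the libraries of a line, thick bars are the means of 3 lines, and each panel has its own linear axis. Fgfr1, Fgfr2 and Pdgfrb lie near 0 in the red Type D lines, Tyro3 separates the types in every treatment, and Ptk7, Epha2, Egfr and Ltk lie higher and Met lower in the restored groups of both types.

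The second comparison asked which receptors changed when p53 was restored. Ptk7 was called higher in both types, Epha2 in Type D and Ltk in Type V. Epha2 and Ltk nevertheless rose in every line of both types, and the difference between the types in their response was not called. Egfr also rose in every line. It had the largest mean change of the tested receptors in Type D, and was called there only with the cell line as a block. In Type D, 2 of 34 receptors were called higher and 0 lower, beside 4.49% and 2.44% of all genes. In Type V, again 2 were called higher and 0 lower, beside 3.39% and 1.9%. The libraries of a line are paired, since each line gave all 4, and with the cell line as a block 4 receptors were called higher in Type D (7.05% of all genes) and 4 in Type V (5.74%), with 0 called lower in Type D (4.16%) and 1 called lower in Type V (2.93%). The receptors' median change was 0.05 in Type D and 0.04 in Type V, beside 0.07 and 0.05 over all tested genes. The macrophage marker Cd68 rose with restoration as well, by 1.95 in Type D and 1.28 in Type V, with limma adjusted p of 0.000134 and 0.00766. The 6 macrophage markers summed to 9.04 to 11.1 TPM in Type D Control and 30.4 to 56 TPM in Type D Restored, and to 6.99 to 10.3 TPM and 16.8 to 32.1 TPM in Type V, with Ptprc, Adgre1, C1qa and Itgam under 1 TPM throughout. Their part in the receptor changes was not tested.

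The promoters of the 3 receptors called without the block are shown because these genes rose with p53. Each line gives 300 bases, from 250 before to 50 after the transcript start, 5′ to 3′ on the gene's strand, from RefSeq (GRCm38.p6). Capitals mark GC boxes, found by script as GGGCGG or its reverse complement CCGCCC.
Ptk7, chr17:46629455-46629754, minus strand: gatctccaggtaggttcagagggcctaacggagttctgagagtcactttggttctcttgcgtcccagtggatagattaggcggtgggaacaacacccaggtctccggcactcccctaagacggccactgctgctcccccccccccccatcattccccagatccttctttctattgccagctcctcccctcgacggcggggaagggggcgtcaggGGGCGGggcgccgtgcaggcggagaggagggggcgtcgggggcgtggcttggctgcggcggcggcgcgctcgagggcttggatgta
Epha2, chr4:141300971-141301270, plus strand: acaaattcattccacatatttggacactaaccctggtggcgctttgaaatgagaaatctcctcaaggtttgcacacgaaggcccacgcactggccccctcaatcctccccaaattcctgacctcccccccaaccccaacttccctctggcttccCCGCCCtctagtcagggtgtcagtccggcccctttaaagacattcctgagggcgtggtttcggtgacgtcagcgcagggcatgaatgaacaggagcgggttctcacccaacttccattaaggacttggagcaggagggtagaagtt
Ltk, chr2:119758476-119758775, minus strand: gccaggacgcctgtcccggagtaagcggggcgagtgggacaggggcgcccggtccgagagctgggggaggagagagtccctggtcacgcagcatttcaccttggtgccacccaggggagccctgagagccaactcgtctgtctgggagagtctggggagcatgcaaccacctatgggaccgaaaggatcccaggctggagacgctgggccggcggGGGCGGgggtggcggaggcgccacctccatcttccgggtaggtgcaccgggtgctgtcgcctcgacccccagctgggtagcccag

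Each of these windows holds 1 GC box. GC boxes were present in 35.7% of 32851 RefSeq promoters and in 34 of the 47 promoters listed for 40 of the receptor genes, where a gene can have several. The windows of Ptk7, Epha2 and Ltk hold 0 matches to the p53 half-site consensus on either strand, which 8.36% of all promoters hold, and this says only that these letters are not in these windows. Ptk7 and Ltk are rich in G and C, at 66% and 69.3%, and Epha2 is at 54.7%. GENCODE places Ptk7 at GRCm38 chromosome 17, 46564471 to 46629504, Epha2 at chromosome 4, 141301240 to 141329384, and Ltk at chromosome 2, 119751320 to 119760431, so the Ltk window lies inside the annotated gene.

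Ptk7 was at 36.4, 25.7 and 44.1 TPM in Type D Control and 103, 71.9 and 144 TPM in Type D Restored. In Type V it went from 88.8, 68 and 102 TPM to 243, 155 and 242 TPM. Every line rose, and Control and Restored did not overlap in either type. The change was 1.54 ± 0.31 in Type D and 1.29 ± 0.31 in Type V, with limma adjusted p of 0.00217 and 0.0101. In Type V the call was lost without 4711-11 (adjusted p 0.108) or 4716-14 (0.0639) or in a fit to Type V Control and Restored alone (0.0677), and in Type D it held without any line and in all other alternatives run.

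Epha2 was at 502, 266 and 393 TPM in Type D Control and 901, 757 and 667 TPM in Type D Restored, without overlap. The change was 1.04 ± 0.27 with a limma adjusted p of 0.0154. It was not called without 4711-1 (limma adjusted p 0.0611), 4711-18 (0.199) or 4716-11 (0.0797). Nor was it called after median-ratio scaling (a change of 0.94, under the size for a call). A fit to Type D Control and Restored alone did not call it either (limma adjusted p 0.0715). In Type V it was at 254, 189 and 169 TPM in Control and 546, 273 and 331 TPM in Restored, which was 0.87 ± 0.27 with an adjusted p of 0.0504. The line changes in Type V were 1.10, 0.53 and 0.97, against 0.84, 1.5 and 0.76 in Type D, and the difference of the responses was 0.17 with a limma adjusted p of 0.69 with the block.

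Ltk, a receptor related to Alk, was a low gene that passed the filter through Type V alone. It was at 0.524, 0.532 and 0.148 TPM in Type V Control and 2.37, 1.07 and 3.29 TPM in Restored. The groups did not overlap, and the change was 1.16 ± 0.28 with a limma adjusted p of 0.0115. The call was lost without 4711-11 (0.0855) or 4716-14 (0.174), after quantile normalization (a change of 0.95) and in a fit to Type V Control and Restored alone (0.161). In Type D it was at 0.098, 0.516 and 0.0534 TPM in Control and 0.596, 0.573 and 1.07 TPM in Restored, a change of 0.52 ± 0.28 with an adjusted p of 0.27.

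Egfr, the receptor for EGF and amphiregulin, had a larger change than these in Type D, but lines that stood far apart in level. It was at 12.2, 2.02 and 10.9 TPM in Type D Control and 51.4, 14 and 37.9 TPM in Restored. The line changes were 1.98, 2.32 and 1.70, and the groups did not overlap. The mean change of 2.0 had an SE of 0.89 and a limma adjusted p of 0.162 without the block, and an SE of 0.19 and an adjusted p of 6.05e-07 with it. In Type V the lines changed by 1.28, 0.54 and 0.97, a mean of 0.93 with an adjusted p of 0.63 without the block and 0.000921 with it, under the size needed for a call.

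Met was lower after restoration in all 6 lines. It was at 60.6, 89.1 and 83.4 TPM in Type D Control and 36, 52.2 and 56.6 TPM in Restored, and at 104, 125 and 145 TPM in Type V Control and 50.8, 65.2 and 71 TPM in Restored. The groups did not overlap in either type. The changes were -0.68 ± 0.22 and -0.99 ± 0.22, with limma adjusted p of 0.0441 and 0.00547, so both passed the threshold on p and neither reached the size for a call, which Type V did reach after median-ratio scaling (-1.02) and quantile normalization (-1.03). Erbb2, the ErbB partner without a ligand of its own, was at 51.9, 53.1 and 46.3 TPM in Type D Control and 36.3, 27.4 and 33.4 TPM in Restored, which was -0.63 ± 0.17 with an adjusted p of 0.0213. Ryk was lower in every line as well, by a mean of -0.54 in Type D and -0.57 in Type V, with limma adjusted p of 0.127 and 0.122 without the block and 9.84e-05 and 7.96e-05 with it.

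The block added calls for 4 further receptors. In Type D it called Ephb3 higher (1.08, limma adjusted p 0.261 without and 8.09e-05 with the block), with line changes of 1.43, 0.77 and 1.04. In Type V it called Ddr1 higher (1.02, 0.0763 and 0.000693) and Ret, the GDNF coreceptor, higher (1.27, 0.157 and 0.00198). It called Pdgfrb lower in Type V (-1.41, 0.519 and 9.34e-05), from 6.87, 36.7 and 143 TPM to 2.6, 9.13 and 61.3 TPM. Every line moved the same way for each of these, and Ret in line 4716-14 went from 1 to 8.33 TPM. Col1a2, a mesenchymal marker, also fell in Type V, with a change of -2.86 and a limma adjusted p of 0.00594, and its part in the Pdgfrb values was not tested.

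Of the remaining receptors, the most abundant one moved little. Axl changed by 0.06 ± 0.35 in Type D and 0.38 ± 0.35 in Type V, with limma adjusted p of 0.976 and 0.609. Epha4, an ephrin receptor of both classes, was higher in every line, with means of 0.91 and 0.95 and adjusted p of 0.336 and 0.344. Ephb6 in line 4711-11 went from 14.5 to 99.2 TPM, a change of 2.69, while line 4716-10 changed by -0.08 and line 4716-14 by 0.83, and the mean of 1.15 had an adjusted p of 0.191 without the block and 0.0676 with it. Csf1r, the macrophage colony receptor, did not exceed 1.53 TPM in any library. Without 4711-11 or without 4716-14 the Type V count was 0, without 4716-10 it was 4, and without 4711-18 it was 3. The Type D count was 1 without any one of its own lines.

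**Figure D3:**
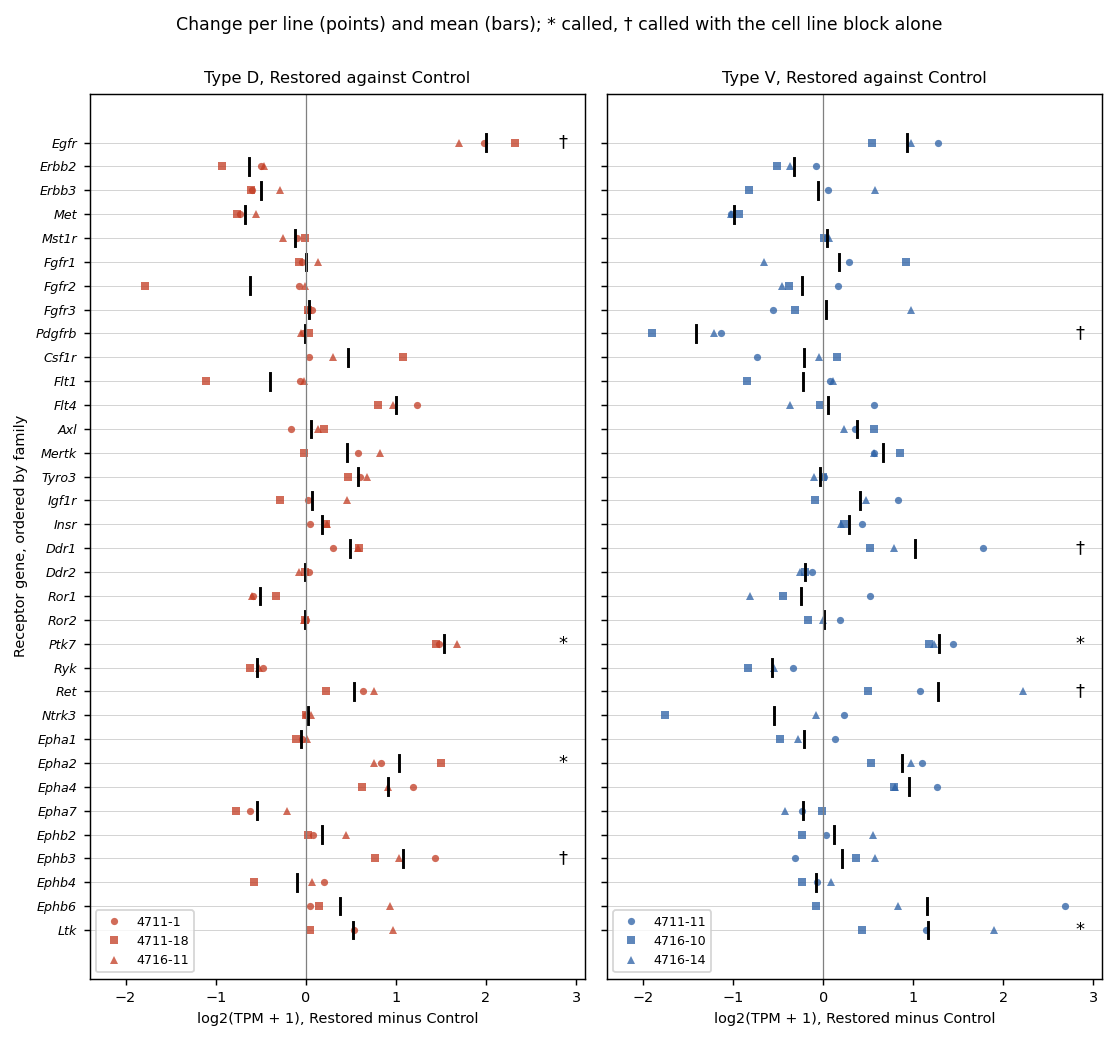
Change of the 34 tested receptor genes between Control and Restored in each line (points) and on average (bars), on the log2(TPM + 1) scale, for Type D (left) and Type V (right). Ptk7, Egfr, Epha2 and Epha4 lie right of 0 and Met and Ryk left of 0 in all 6 lines, while Ephb6 in Type V rests on 1 line.

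The third comparison asked whether the response to restoration differed between the types. Without the block 0 of 34 receptors were called, beside 0.0284% of all genes, and 1 receptor had an unadjusted p under 0.05. With the block 2 were called, both higher in Type D minus Type V, beside 1.13% of all genes called higher. Egfr rose by 1.07 more in Type D (SE 0.26, limma adjusted p 0.0282), and Pdgfrb differed by 1.40 (SE 0.30, limma adjusted p 0.0157). Pdgfrb was at most 0.239 TPM in any Type D library, so its difference was set by Type V. For Tyro3, the Type D lines changed by 0.60, 0.47 and 0.68 and the Type V lines by 0.01, 0.00 and -0.10, a difference of 0.61 with an adjusted p of 0.0266 with the block and a size under that for a call. Flt4, a VEGF-C receptor, changed by 1.23, 0.80 and 0.97 in Type D and by 0.56, -0.04 and -0.37 in Type V, a difference of 0.95 with an adjusted p of 0.0398 with the block, also under that size. The SE of the difference without the block was 1.25 for Egfr and 1.54 for Pdgfrb.

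Restoration under CsA was a repeat in the same lines with other libraries. In Type D, Ptk7 was the 1 receptor called higher and 0 were called lower, beside 3.53% and 1.88% of all genes. It went from 26.4, 18.7 and 42.1 TPM to 72, 72.7 and 101 TPM (1.52 ± 0.31, limma adjusted p 0.003). Epha2 changed by 0.92 ± 0.27 with an adjusted p of 0.0391, just under the size for a call. In Type V, Ptk7 (1.09 ± 0.31, adjusted p 0.0337) and Ltk (1.14 ± 0.28, adjusted p 0.015) made 2 called higher and 0 lower, beside 2.84% and 1.77%. With the block 3 were called higher in Type D (5.91% of all genes), Egfr (2.12), Ptk7 and Epha4 (1.16), and in Type V 2 were called higher (5.03%) and 1 lower (2.94%), Pdgfrb (-1.70). The signs of 31 of 34 receptors were the same with and without CsA in Type D, and 31 of 34 in Type V, including all 15 and all 13 that had changed by at least 0.5. The share of all genes that kept their sign is not given, so this is not a trait of receptors. Without 4716-14 the Type V count was 0, without 4711-11 or 4711-1 it was 1, and without 4711-11 the Type D count was 2, when Epha4 was called.

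**Figure D4:**
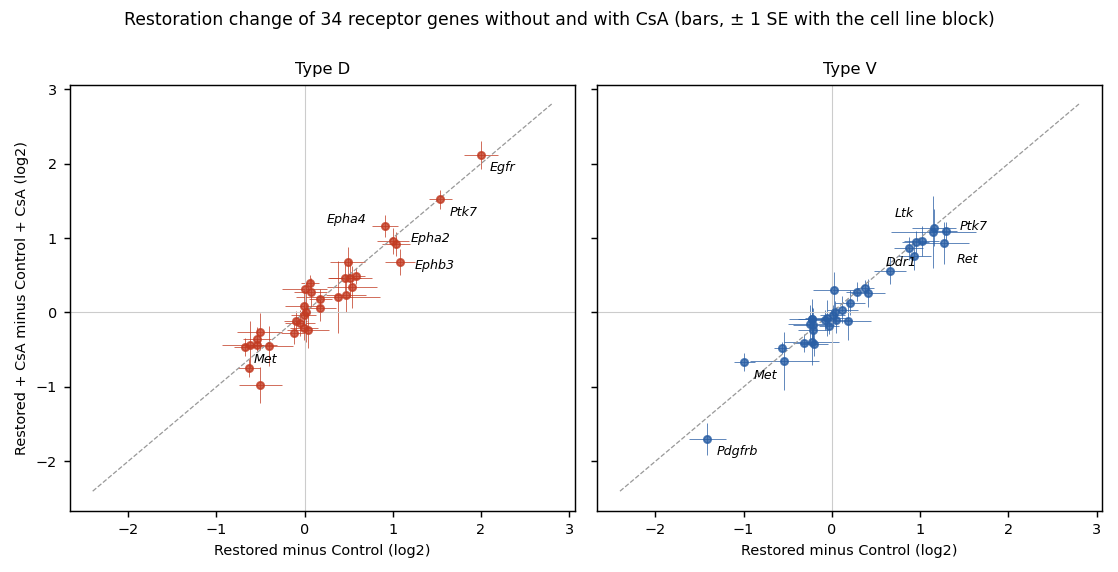
Change with p53 restoration of the 34 tested receptor genes without CsA (horizontal) and with CsA (vertical), both log2(TPM + 1), for Type D (left) and Type V (right), with bars of 1 SE from the fit with the cell line block and a dashed line of equality. The receptors lie along that line, Egfr farthest up in Type D and Pdgfrb farthest down in Type V.

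CsA itself was compared with its absence at the same p53 state. Among unrestored lines 0 receptors were called in Type D and 0 in Type V, beside 0% of all genes in both, and 0 receptors had an unadjusted p under 0.05 in limma. With the block these unadjusted counts were 2 and 0, and 0 were called. Changes ranged from -0.40 (Epha7) to 0.26 (Erbb3) in Type D and from -0.27 (Fgfr3) to 0.55 (Fgfr2) in Type V. Among restored lines 0 receptors were called in Type D, beside 0.0142% of all genes, and 0 in Type V, beside 0%, with 0 receptors at an unadjusted p under 0.05 without the block and 2 and 1 with it. Here changes ranged from -0.36 (Fgfr3) to 0.43 (Fgfr1) in Type D and from -0.46 (Ret) to 0.38 (Fgfr2) in Type V. Fgfr2 was at 41.2 and 75.7 TPM in line 4711-11 without and with CsA, which was the largest shift in TPM for that gene, and it was not called.

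The ligand genes of these receptors were read from a list of 65 symbols, of which 56 were tested. Between Type D and Type V Control lines 3 ligands were called higher in Type D and 5 lower, beside 2.18% and 2.3% of all genes. The higher ones were Fgf1 (4.49), and the EGF receptor ligands Areg (3.39) and Btc (2.82). Areg was at 385, 172 and 391 TPM in Type D and 14.9, 55.9 and 24 TPM in Type V. The lower ones included Fgf13 (-4.74), which is an intracellular FGF homolog, the ErbB3 and ErbB4 ligand Nrg1 (-4.07), Gdnf (-3.55) and Fgf10 (-3.19), and the fifth was Wnt5a (-2.04). Nrg1 was at 1.2, 2.99 and 4.95 TPM in Type D and 76.2, 41.2 and 75.5 TPM in Type V. So the ErbB receptor Erbb3 and its ligand Nrg1 had their higher values in opposite types, whereas Fgf10 had its higher values in the type with Fgfr2.

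With restoration 6 ligands rose and 1 fell in Type D, and 5 rose and 0 fell in Type V, beside 4.49% and 2.44% of all genes in Type D and 3.39% and 1.9% in Type V. With the block these counts were 14 and 2 in Type D (7.05% and 4.16% of all genes) and 10 and 0 in Type V (5.74% and 2.93%). Pros1, which encodes protein S, rose in both, from 11.3, 6.76 and 20.7 TPM to 52, 34.6 and 61.1 TPM in Type D and from 38.9, 37.1 and 31 TPM to 177, 109 and 152 TPM in Type V (1.94 and 1.98, limma adjusted p 0.000723 and 0.000771). The PDGF ligand Pdgfa rose by 1.95 in Type D and 1.76 in Type V. In Type D the others among the 4 largest were Mst1 (3.28), the ligand of Mst1r, and Areg (2.22), and Fgf21 fell by 1.37. In Type V, Fgf18 (2.21) and the EGF receptor ligand Tgfa (1.89) completed the 4 largest. Efna1, the ephrin most associated with Epha2, was at 37, 57.3 and 27.9 TPM in Type D Control and 66, 144 and 47.3 TPM in Restored and was not called. Fgf1, Areg, Pros1 and Pdgfa are in gene modules that the study made from these libraries, so those lists are no independent evidence.

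Downstream, of 26 tested carriers of receptor signals (adaptors, Ras, Raf, Mek, Erk and phosphoinositide 3-kinase genes), 0 were called higher and 1 lower in Type D Control, Pik3r1 (-1.09, limma adjusted p 0.0311), a regulatory subunit of phosphoinositide 3-kinase, beside 2.18% and 2.3% of all genes. In sign 18 of the 26 were lower in Type D, with a median difference of -0.17, beside -0.12 over all tested genes, and 9 had an unadjusted p under 0.05. With restoration, Pik3r3 (1.81) and Irs2 (1.01) rose in Type D and 0 fell, and 0 of 26 were called in Type V, where 7 had an unadjusted p under 0.05, beside 4.49% of all genes called higher in Type D and 3.39% in Type V. With the block 3 rose and 0 fell in Type D (7.05% and 4.16% of all genes), and 2 rose and 0 fell in Type V (5.74% and 2.93%). Of 24 restraint genes, 3 were called higher in Type D Control and 0 lower, namely the ubiquitin ligase gene Cblc (3.65), Dusp6 (2.32) and Dusp4 (1.59), beside 2.18% and 2.3% of all genes. In Restored these were 6 higher and 0 lower (1.76% and 1.72% of all genes), among them Dusp5 (3.40), Dusp6 (2.73), Cblc (2.64) and Errfi1 (2.24), the last an inhibitor of Egfr. Restoration itself raised Dusp7 (1.53) and Spred3 (1.34) in Type D and lowered 0, and 0 were called in Type V, where 2 had an unadjusted p under 0.05, beside 4.49% and 2.44% of all genes in Type D and 3.39% and 1.9% in Type V. With the block 5 restraint genes rose and 1 fell in Type D (7.05% and 4.16% of all genes), and 0 were called in Type V (5.74% and 2.93%).

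Of 15 tested genes that the Erk cascade is known to induce, 4 were called higher and 0 lower in Type D Control, beside 2.18% and 2.3% of all genes, namely Dusp6, Dusp4, Etv5 (1.37) and the cyclin gene Ccnd1 (1.24), and 13 of the 15 were higher in sign. The median difference of the 15 was 1.01, beside -0.12 over all tested genes. Dusp4, Dusp6, Spry2 and Spry4 are on the list of restraint genes as well, so the counts of these lists are not separate evidence. Ccnd1 was at 708, 474 and 822 TPM in Type D and 302, 250 and 273 TPM in Type V. Dusp6 was at 161, 157 and 190 TPM against 33.3, 52.6 and 20.2 TPM, so it did not overlap between the types. Epha2, which is also on this list, was the 1 gene of 15 called higher with restoration in Type D, and 0 were called in Type V, where 1 had an unadjusted p under 0.05, beside 4.49% of all genes called higher in Type D and 3.39% in Type V. With the block 5 rose and 0 fell in Type D (7.05% and 4.16% of all genes), and 0 rose and 1 fell in Type V (5.74% and 2.93%). Areg, Dusp4, Dusp6 and Etv5 are on a Type D list, and Pik3r1 on a Type V list, that the study made from these libraries. The 4 comparisons of CsA with its absence called 0 ligands, 0 carriers, 0 restraint genes and 0 Erk output genes in limma, beside 0 to 0.0142% of all genes. With the block 0 were called as well. At an unadjusted p under 0.05 without the block they held 1 ligand in Type D Control, 1 carrier and 3 Erk output genes in Type D Restored, and 0 otherwise. With the block 9 of 56 ligands, 4 of 26 carriers, 7 of 24 restraint genes and 6 of 15 Erk output genes had such a p in Type D Restored. There 13 Erk output genes were lower and 2 higher with CsA, with a median of -0.38, beside 0.00 over all tested genes.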

How the data were processed

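Stranded mRNA libraries were sequenced as 75-bp single-end reads by the authors, who deposited TPM values for 25239 genes, summing to 1000000 per library. The study names kallisto or HISAT2 without saying which gave the table, and both mm10 and GRCm39, so its build is uncertain. Gene positions here are GENCODE vM21 and promoters RefSeq, both GRCm38, matched by symbol. Depth is unknown.

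Receptors and lists were chosen with earlier results of these data known. Values were log2(TPM + 1). Testing was restricted to genes reaching a TPM of 1 in 3 or more libraries and used limma 3.58.1 (R 4.3.3, eBayes with trend), two-sided, with Benjamini-Hochberg adjustment over 14104 genes in each of 13 comparisons. Types were compared within their 6 libraries, because a line would otherwise count 4 times. Treatments and the difference of responses used all 24 libraries in 8 groups. Libraries of a line are paired by the labels: after removing group means they correlated at r of 0.599 to 0.929 (36 pairs), and those from different lines within a type at -0.675 to 0.0438 (72 pairs). Removing the means of groups of 3 lines itself pushes the second range below 0, so that range is no separate evidence of pairing. The cell line block was an alternative, as were pseudocount 0.1, no filter, a TPM minimum of 5, quantile normalization, median-ratio scaling, other libraries in the fit and each line left out. All 47 receptors are accounted for. Receptors called in any comparison are given in full, and listed genes up to the 4 largest called per direction. Receptors discussed without a call were chosen after their values were seen. Counts at an unadjusted p under 0.05 are given without the share of all genes at that p, so they are not results about the lists. Scripts were tested on simulated data. No 2 columns were identical (0 pairs). Of the ligand symbols, Figf, Fam150a and Fam150b did not match. Figures were drawn with matplotlib 3.10.9. 1 marker gene is not reported here.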

Additional observations from a re-analysis of the deposited data

Results flagged for a closer look

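Egfr and Pdgfrb are listed here because the difference of the restoration response between the types passed the test with the cell line block. The difference (Type D minus Type V) was 1.07 for Egfr, with a limma adjusted p of 0.0282, and 1.40 for Pdgfrb, with a limma adjusted p of 0.0157. Without the block both had an adjusted p of 1. Egfr was higher after restoration in 6 of 6 lines.

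In 3 further cases every Type D line moved one way and every Type V line the other. The share of all genes that split in this way was not counted, so the number is not a result about receptors. For Mst1r with restoration, the mean change was -0.12 in Type D and 0.04 in Type V, a difference of -0.16 in a gene that did not reach 1 TPM in Type V, and its test gave a limma adjusted p of 1 without and 0.7 with the block. For Axl, CsA after restoration gave a mean change of 0.34 in Type D and -0.18 in Type V, a difference of 0.52. For Csf1r the same comparison gave -0.31 and 0.17, a difference of -0.48, at levels of at most 1.53 TPM. The differences for Axl and Csf1r were not tested.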

How the results depend on the processing

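No change of a receptor that was called, with or without the block, or that passed the threshold on p turned its direction in 474 values under the alternatives, and 373 of these kept their side of the call, 84 lost it and 17 gained it. Comparisons of types could not take the cell line block, because each line gives them 1 library. The numbers of receptors called between types in Control, Control + CsA, Restored and Restored + CsA were 6, 5, 2 and 2. Without the filter they were 2, 1, 1 and 1, when all 25239 genes were tested. With all 24 libraries in the fit they were 7, 8, 8 and 6, which counts the libraries of a line as separate. Median-ratio scaling gave 3 in Control and quantile normalization 4 in Restored + CsA. With each line left out in turn they ranged from 0 to 6, 1 to 5, 0 to 4 and 1 to 6. For restoration in Type D (2 called), median-ratio scaling and fitting just the groups compared each gave 1, the block 4, and leaving out lines 1 to 2. For restoration in Type V (2 called), a TPM minimum of 5 gave 1, fitting just the groups compared 0, the block 5, and leaving out lines 0 to 4. For restoration under CsA in Type D (1 called), fitting just the groups compared gave 2, the block 3, and leaving out lines 1 to 2. In Type V (2 called), a TPM minimum of 5 and quantile normalization each gave 1, fitting just the groups compared 0, the block 3, and leaving out lines 0 to 2. The difference of the responses had 0 calls, 2 with the block, and 0 with each line left out. The cause of these shifts was not tested, other than fewer samples or more genes tested where the setting itself makes them so. In the 4 comparisons of CsA with its absence every alternative gave 0. With 3 lines a group, unknown depth and a pseudocount of 1, small changes in receptors of low level cannot be seen.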

Other observations

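Some ligand genes that were called in no comparison between types were high in 1 or 2 of the Type V lines. Ptn, which encodes pleiotrophin, was at 172 TPM in Control of line 4716-10, 48.6 TPM in 4716-14 and 0.811 TPM in 4711-11, and it was listed at 0 in the 3 Type D Control lines. Hgf, the ligand of Met, was at 8.31 TPM in 4716-14, 1.09 TPM in 4711-11 and 0.115 TPM in 4716-10, and at most 0.0384 TPM in any Type D library. Gas6, the ligand of Axl, Mertk and Tyro3, was at 21.7 TPM in 4716-14 Control and 49.4 TPM in 4716-14 Restored, and between 0 and 3.21 TPM in the Control and Restored libraries of the other lines. Pdgfd was at 15.7 TPM in 4711-11 Control and at most 2.51 TPM in the other Control lines. These genes were chosen after their values were seen, and no comparison of single lines was tested.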
